A study of Mus musculus with 3 samples.

Results

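Caveolae, fenestrae and transcytosis are 3 linked ways by which endothelial cells handle their plasma membrane and move material across the vessel wall. The 10 genes described here code for their core parts and were taken by symbol: the caveolins Cav1 and Cav2, the cavins Cavin1, Cavin2 and Cavin3, the diaphragm gene Plvap, the ATPase genes Ehd2 and Ehd4, the water channel gene Aqp1 and the lipid transporter gene Mfsd2a. All 10 were found among the 52661 gene identifiers of each deposited table. Bulk RNA sequencing was used in 3 populations of mouse mammary cells, with 1 library for each. Per the labels, all 3 were sorted as PROCR+ (PROCR is the receptor of protein C), EpCAM-positive and high in the integrin CD49f, and they are called mammary epithelial cells. The CD36+ library came from cells positive for the fatty acid receptor CD36 and negative for podoplanin (PDPN), given as Cdh5 positive. The double-negative library came from cells labelled negative for both proteins and also given as Cdh5 positive. The PDPN+ library came from CD36-negative, PDPN-positive cells, given as Cdh5 negative. No treatment is recorded, and the strain, the age and the number of mice or cells behind a library are not given in the labels.

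Caveolae are flask-shaped pits of the plasma membrane that are dense in endothelial cells, adipocytes and muscle. Caveolin 1 oligomers shape the bulb, caveolin 2 joins them, and the cavins form an outer coat, with cavin 1 needed for a stable pit. EHD2 sits at the neck, and PLVAP builds the thin diaphragm that spans fenestrae and the mouths of endothelial caveolae. Caveolae also feed transcytosis, the vesicle traffic across the endothelium. MFSD2A, a transporter of lysophospholipids, holds caveolar transcytosis low in the vessels of the brain.

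The libraries held 67675778 estimated counts (CD36+), 51138993 (double-negative) and 63871266 (PDPN+). Levels are compared between libraries as CPM, counts relative to library size after TMM scaling, and each population name below stands for its 1 library. Levels between genes are given as the authors' TPM, which corrects for transcript length. With 1 library a population there is no replicate error and no test, and differences compare the libraries, not the populations. The 95% intervals are exact (Clopper-Pearson) and cover counting error only. In bulk RNA, fewer cells of a type and less RNA per cell cannot be told apart. The 9 endothelial markers, among them Pecam1, Cdh5 and Kdr, summed to 5452 CPM in CD36+ cells, 3847 CPM in double-negative cells and 124 CPM in PDPN+ cells. The 4 general epithelial markers, Epcam among them, summed to 102, 176 and 804 CPM in the same libraries, so CD36+ and double-negative cells went against their epithelial label, with endothelial markers far above epithelial ones. Cd36, a gene of the sort, stood at 4766 CPM in CD36+ cells, 1523 CPM in double-negative cells and 45.1 CPM in PDPN+ cells. The double-negative library thus held much Cd36 RNA despite its CD36-negative label, 3.13-fold below CD36+ cells (3.10 to 3.15) and 33.8-fold above PDPN+ cells (32.6 to 35.0). That label concerns the sorted protein, which these RNA data do not measure.

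The promoters of the 2 neighbouring caveolin genes, of Aqp1, which had the widest difference between libraries among the 9 genes found in all 3, and of Ehd4, whose transcript mix differed between libraries, are shown as the 250 bases before the start annotated by RefSeq (GRCm38.p6, the mm10 sequence). Capitals mark matches on either strand to 7 short motifs. Of these CAGCTG is an E-box found in many promoters, and CACCTG is another E-box. The GC box was searched as GGGCGG and the CCAAT box by the letters of its name. The TATA box was searched as TATAAA, and the core that ETS factors bind was searched as CCGGAA. The motif of the AP-1 factors was searched as TGANTCA. No matches overlapped each other.
Cav2 (chr6:17280935-17281184, plus strand): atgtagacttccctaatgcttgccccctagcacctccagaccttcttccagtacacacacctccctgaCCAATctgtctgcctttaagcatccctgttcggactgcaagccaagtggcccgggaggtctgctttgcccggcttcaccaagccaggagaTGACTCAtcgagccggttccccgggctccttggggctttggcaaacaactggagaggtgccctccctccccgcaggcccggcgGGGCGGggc
Cav1 (chr6:17306085-17306334, plus strand): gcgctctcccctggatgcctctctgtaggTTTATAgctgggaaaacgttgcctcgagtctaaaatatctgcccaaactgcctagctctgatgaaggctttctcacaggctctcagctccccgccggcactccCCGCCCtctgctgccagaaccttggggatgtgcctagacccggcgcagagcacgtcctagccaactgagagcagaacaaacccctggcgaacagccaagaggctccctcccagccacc
Aqp1 (chr6:55336049-55336298, plus strand): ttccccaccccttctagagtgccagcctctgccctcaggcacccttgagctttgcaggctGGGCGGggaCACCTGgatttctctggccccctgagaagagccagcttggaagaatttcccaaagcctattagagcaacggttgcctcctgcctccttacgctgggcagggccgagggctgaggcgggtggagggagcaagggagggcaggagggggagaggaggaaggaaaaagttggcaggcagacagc
Ehd4 (chr2:120154576-120154825, minus strand): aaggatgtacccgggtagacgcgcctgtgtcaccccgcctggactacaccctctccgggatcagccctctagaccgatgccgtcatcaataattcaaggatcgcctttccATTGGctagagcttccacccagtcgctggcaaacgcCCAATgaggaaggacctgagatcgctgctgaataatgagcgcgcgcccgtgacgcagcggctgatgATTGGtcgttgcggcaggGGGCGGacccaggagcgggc

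Of the 10 genes, 8 had a promoter in the RefSeq table, the others being Plvap and Cavin3. The GC box letters GGGCGG stood in 6 of the 8, against 32.9% of all 27025 promoters of this length, and CCAAT also stood in 6 of the 8, against 34.5%. The GC content was 40.4% before Cavin2 and 58.0% to 67.6% before the others, against a median of 52.0% over all promoters. The shares over all promoters were not matched for GC content. CACCTG was found before Aqp1 and Mfsd2a, with a share of 17.1% over all promoters. CAGCTG was found before Ehd2 alone, with a share of 12.8%. TATAAA was found before Cav1 alone (13.0% of all promoters) and TGANTCA before Cav2 alone (6.87%). CCGGAA was found in none of the 8 (12.2% of all promoters). Both caveolin promoters held 1 GC box, and they shared no other of these motifs. These are matches of letters, not sites of binding.

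The 2 caveolin genes lie next to each other on chromosome 6 of mm10 on the plus strand, Cav2 at 17281185 to 17289115 and Cav1 at 17306335 to 17341452, with 17219 bases between them. Cav1, the main caveola coat protein, stood at 772 CPM in CD36+ cells, 822 CPM in double-negative cells and 172 CPM in PDPN+ cells. Cav2, its partner, stood at 376, 350.2 and 124 CPM in the same libraries. Both genes were high in the 2 Cdh5-positive libraries and lower, though well detected, in PDPN+ cells. Cav1 was 4.50-fold higher in CD36+ than in PDPN+ cells (interval 4.41 to 4.58) and 4.79-fold higher in double-negative than in PDPN+ cells (4.69 to 4.88). Cav2 was 3.04-fold (2.97 to 3.12) and 2.83-fold higher (2.76 to 2.91) in the same comparisons. Between CD36+ and double-negative cells Cav1 was 1.07-fold lower (1.05 to 1.08) and Cav2 1.07-fold higher (1.05 to 1.09), and the direction of Cav2 turned under total-count scaling and in the deposited TPM. On the TPM scale Cav1 exceeded Cav2 in every library, 2.60-fold in CD36+ cells, 2.96-fold in double-negative cells and 2.004-fold in PDPN+ cells. An antisense gene spanning both, Gm15581, had 0, 5 and 2 counts in CD36+, double-negative and PDPN+ cells, against at least 9142 counts for either caveolin. Antisense or overlapping genes at Cavin2 and Cavin3 had at most 5 counts, and the strand setting of the counting is not known.

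**Figure D1:**
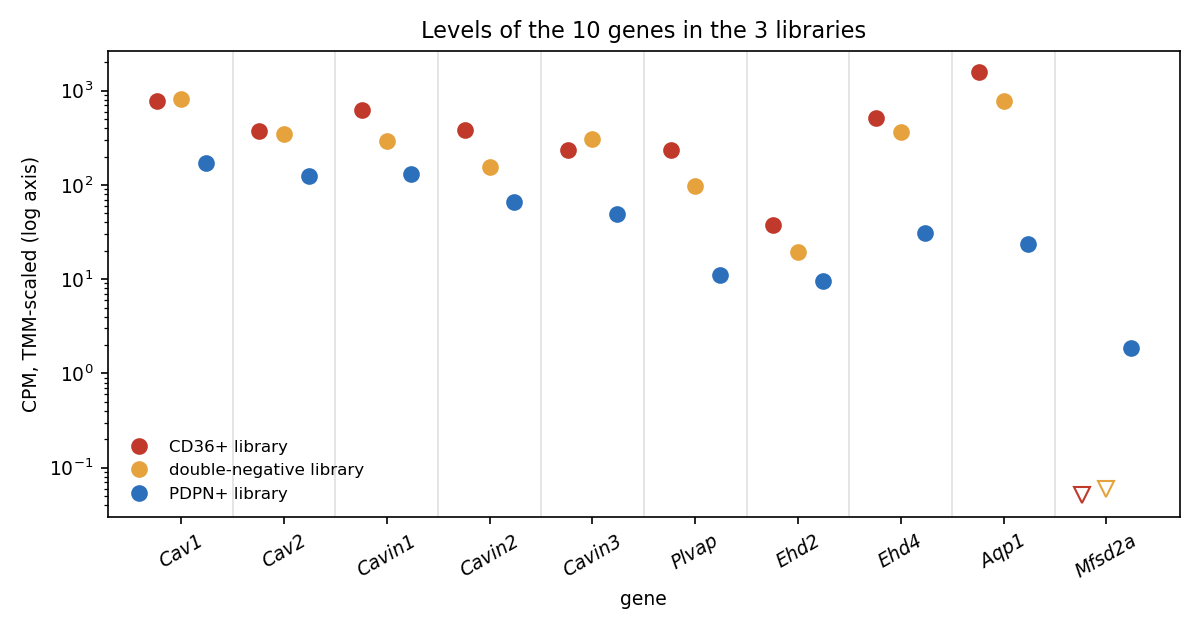
Level of each of the 10 genes in each library, in TMM-scaled CPM on a log axis, 1 point per library; open triangles mark 0 counts, drawn at the level of 3 counts. For 9 genes the PDPN+ point is the lowest, and Mfsd2a has a filled point in PDPN+ cells alone, at 1.84 CPM.

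The 3 cavin genes were also lowest in PDPN+ cells, but they ranked differently in the other libraries. Cavin1, the cavin that caveolae depend on (minus strand of chromosome 11, 100956733 to 100970887), stood at 629 CPM in CD36+ cells, 294 CPM in double-negative cells and 131 CPM in PDPN+ cells. Cavin2, which binds phosphatidylserine and helps curve the membrane (plus strand of chromosome 1, 51289126 to 51302960), stood at 379, 155 and 65.1 CPM. Cavin3, which binds protein kinase C delta (minus strand of chromosome 7, 105480083 to 105482300), stood at 234, 307 and 49.7 CPM. Cavin1 and Cavin2 were thus highest in CD36+ cells, and Cavin3 was highest in double-negative cells. Against PDPN+ cells, CD36+ cells held 4.81-fold more Cavin1 (4.70 to 4.92), 5.82-fold more Cavin2 (5.65 to 6.01) and 4.71-fold more Cavin3 (4.54 to 4.89). Double-negative cells held 2.25-fold more Cavin1 (2.19 to 2.30), 2.38-fold more Cavin2 (2.30 to 2.47) and 6.18-fold more Cavin3 (5.96 to 6.41) than PDPN+ cells. In CD36+ against double-negative cells, Cavin1 was 2.14-fold higher (2.10 to 2.18), Cavin2 2.45-fold higher (2.39 to 2.51) and Cavin3 1.31-fold lower (1.28 to 1.34).

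Shares within a library do not depend on the scaling between libraries. Cavin3 made up 33.0% of the summed cavin TPM in CD36+ cells, 59.2% in double-negative cells and 35.1% in PDPN+ cells. Cavin1 made up 39.5%, 25.4% and 41.2%, and Cavin2 27.5%, 15.4% and 23.7%. In their cavin makeup CD36+ cells therefore lay nearer to PDPN+ than to double-negative cells, although their levels were far above those of PDPN+ cells. Caveolin TPM summed to 586 in CD36+ cells, 661 in double-negative cells and 231 in PDPN+ cells, and cavin TPM to 529.9, 422 and 148. The ratio of caveolin to cavin TPM was 1.11 in CD36+ cells, 1.57 in double-negative cells and 1.56 in PDPN+ cells.

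**Figure D2:**
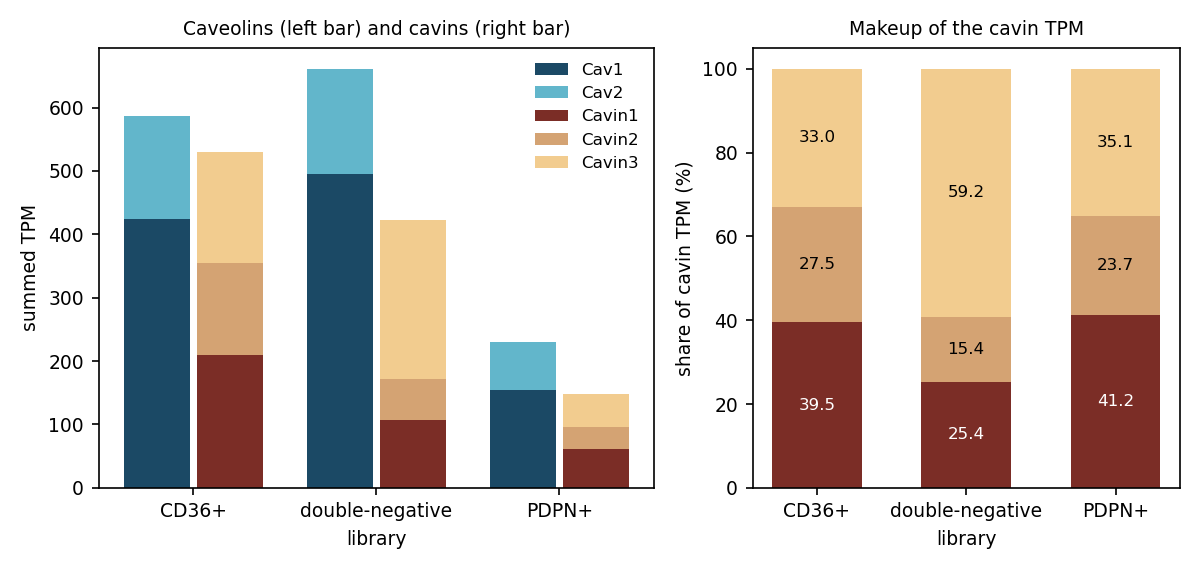
Left, summed TPM of the caveolins and of the cavins in each library, stacked by gene; right, each cavin's share of the cavin TPM in percent. Cavin3 takes 59.2% in double-negative cells, against 33.0% in CD36+ and 35.1% in PDPN+ cells.

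Plvap, the gene of the diaphragm protein (minus strand of chromosome 8, 71497765 to 71511752), stood at 234 CPM in CD36+ cells, 96.7 CPM in double-negative cells and 10.9 CPM in PDPN+ cells. The levels of the 3 libraries were well apart. Plvap was 21.4-fold higher in CD36+ than in PDPN+ cells (19.9 to 22.98), 8.84-fold higher in double-negative than in PDPN+ cells (8.20 to 9.53), and 2.42-fold higher in CD36+ than in double-negative cells (2.34 to 2.50). On the TPM scale, which sets genes side by side, the ratio of Plvap to Cav1 was 0.338 in CD36+ cells, 0.131 in double-negative cells and 0.0609 in PDPN+ cells. A gene on the other strand that overlaps Plvap, Gtpbp3, had 106, 39 and 126 counts in CD36+, double-negative and PDPN+ cells, against 13843, 4881 and 809 counts for Plvap.

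The EHD proteins are dynamin-related ATPases that remodel membranes. Ehd2, which holds caveolae at the surface (minus strand of chromosome 7, 15946958 to 15967567), had the lowest TPM of the 9 genes found in every library, 8.45 in CD36+ cells, 4.73 in double-negative cells and 2.99 in PDPN+ cells. Its CPM was 37.9 in CD36+ cells, 19.3 in double-negative cells and 9.55 in PDPN+ cells. It was 3.97-fold higher in CD36+ than in PDPN+ cells (3.65 to 4.32), just under the 4-fold mark, and 2.03-fold higher in double-negative than in PDPN+ cells (1.84 to 2.23). Between CD36+ and double-negative cells it was 1.96-fold higher in CD36+ (1.82 to 2.11), just under 2-fold. Ehd4, a family member known from endosomes (minus strand of chromosome 2, 120089175 to 120154606), stood at 512, 366 and 30.7 CPM in CD36+, double-negative and PDPN+ cells. Ehd4 was 16.7-fold higher in CD36+ (16.0 to 17.4) and 11.9-fold higher in double-negative cells (11.4 to 12.5) than in PDPN+ cells, and 1.40-fold higher in CD36+ than in double-negative cells (1.37 to 1.42). Its TPM was 18.8 times that of Ehd2 in CD36+ cells, 30.2 times in double-negative cells and 10.2 times in PDPN+ cells.

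The Ehd4 difference was smaller on the TPM scale, which differs from CPM in library scaling and in transcript length. By the deposited TPM, Ehd4 stood at 159 in CD36+ cells, 143 in double-negative cells and 30.5 in PDPN+ cells, a ratio of 5.21 between CD36+ and PDPN+ cells and of 4.68 between double-negative and PDPN+ cells. The effective length that links its counts to its TPM was 3536 bases in CD36+ cells, 3099 bases in double-negative cells and 1554 bases in PDPN+ cells. The annotation holds 4 Ehd4 transcripts, of which the coding one has 3730 bases and the others at most 541 bases. More of the Ehd4 TPM of PDPN+ cells was thus assigned to short noncoding transcripts. For Cav1, with 10 annotated transcripts, the implied length was 2003, 2009 and 1722 bases in CD36+, double-negative and PDPN+ cells, and the TPM ratio of CD36+ to PDPN+ cells was 2.75. For genes with 1 annotated transcript, such as Plvap, Cavin2 and Aqp1, the TPM ratio of CD36+ to PDPN+ cells was 0.713 to 0.714 times the CPM ratio. That factor was 0.612 for Cav1 and 0.313 for Ehd4.

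**Figure D3:**
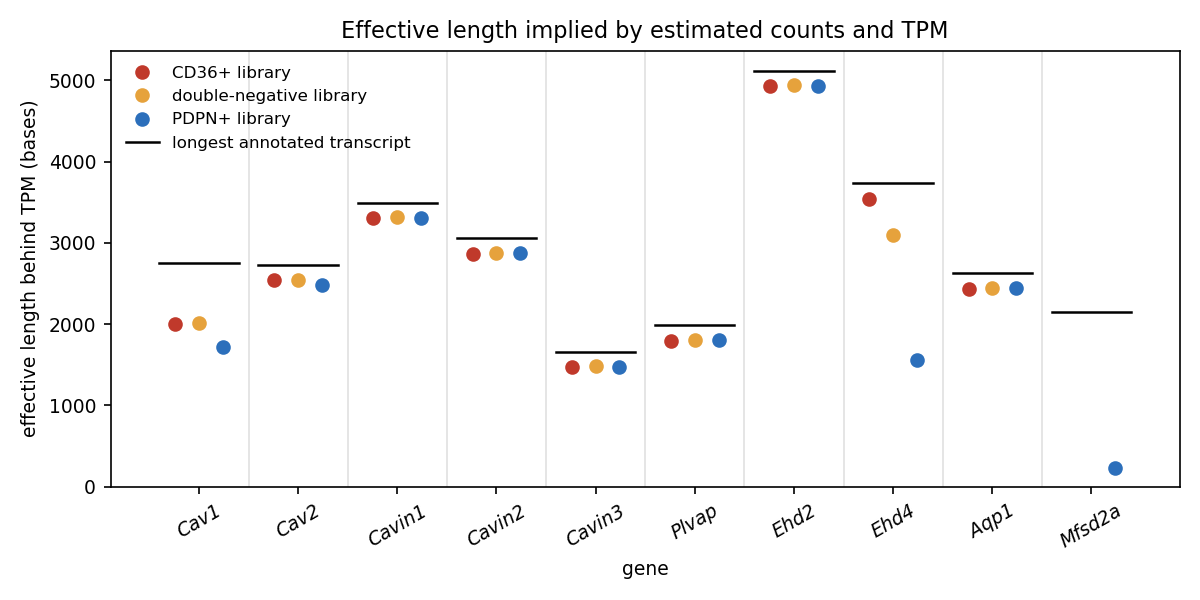
Effective length in bases implied by the estimated counts and TPM of each gene and library (points), with the longest annotated transcript as a black line. Ehd4 lies at 1554 bases in PDPN+ cells against 3536 bases in CD36+ cells, and Mfsd2a at 227 bases against a longest transcript of 2151 bases.

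Aqp1, which codes for the water channel of many capillary endothelia and of red cells (plus strand of chromosome 6, 55336432 to 55348555), had the widest range of the 9. It stood at 1582 CPM in CD36+ cells, 775 CPM in double-negative cells and 23.4 CPM in PDPN+ cells. The ratio to PDPN+ cells was 67.7 for CD36+ cells (64.6 to 71.1) and 33.2 for double-negative cells (31.6 to 34.9), and Aqp1 was 2.04-fold higher in CD36+ than in double-negative cells (2.02 to 2.06). By TPM, Aqp1 ranked 166 among the 21786 protein-coding genes in CD36+ cells, 357 in double-negative cells and 5690 in PDPN+ cells. Red cell transcripts were present beside Aqp1 in CD36+ cells, where Hbb-bs had 3052 counts and Hba-a2 2480 counts, against 0 counts of each in double-negative and PDPN+ cells. Alas2, an enzyme of heme synthesis in red cell precursors, and Hbb-bt had 0 counts in CD36+ cells, and double-negative cells held 775 CPM of Aqp1 with 0 globin counts. The part of red cells in the Aqp1 level of CD36+ cells was not tested.

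The other aquaporins had a different distribution. Of 11 further aquaporin genes, 6 reached 1 CPM in a library, of which 4 lay below PDPN+ cells by 2-fold or more in CD36+ cells and 1 lay above by as much. Over the 17533 genes that reached 1 CPM in a library, 31.5% were lower by this rule and 25.3% higher. Aqp3, an aquaglyceroporin of epithelia, stood at 4.29 CPM in CD36+ cells, 11.1 CPM in double-negative cells and 384 CPM in PDPN+ cells. That made Aqp3 89.4-fold lower in CD36+ (79.1 to 102) and 34.6-fold lower in double-negative than in PDPN+ cells (31.8 to 37.7). Aqp9, which also passes glycerol, stood at 0.777, 1.25 and 78.0 CPM, and Aqp4, the water channel of astrocytes, at 0.236, 0.317 and 7.13 CPM in CD36+, double-negative and PDPN+ cells. Aqp5, a channel of glandular epithelia, stood at 0.946, 2.50 and 2.11 CPM, and was the remaining one of the 4. Aqp11 was the one at least 2-fold higher, at 12.5 CPM in CD36+ cells against 1.98 CPM in double-negative and 2.37 CPM in PDPN+ cells. Aqp7, another aquaglyceroporin, stood at 1.99, 1.37 and 1.298 CPM, or 1.54-fold higher in CD36+ than in PDPN+ cells (1.16 to 2.03). Aqp3, Aqp4 and Aqp9 were at least 2-fold lower in double-negative than in PDPN+ cells, where 32.4% of all genes were, and 0 of the 6 were higher (26.4%). The median log2 ratio of the 6 was -2.94 for CD36+ and -2.31 for double-negative against PDPN+ cells, beside -0.07 and -0.05 over all 17533 genes. Between CD36+ and double-negative cells the median of the 6 was -0.52, beside 0.00 over all genes, with Aqp11 at least 2-fold higher and Aqp3 and Aqp5 lower.

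**Figure D4:**
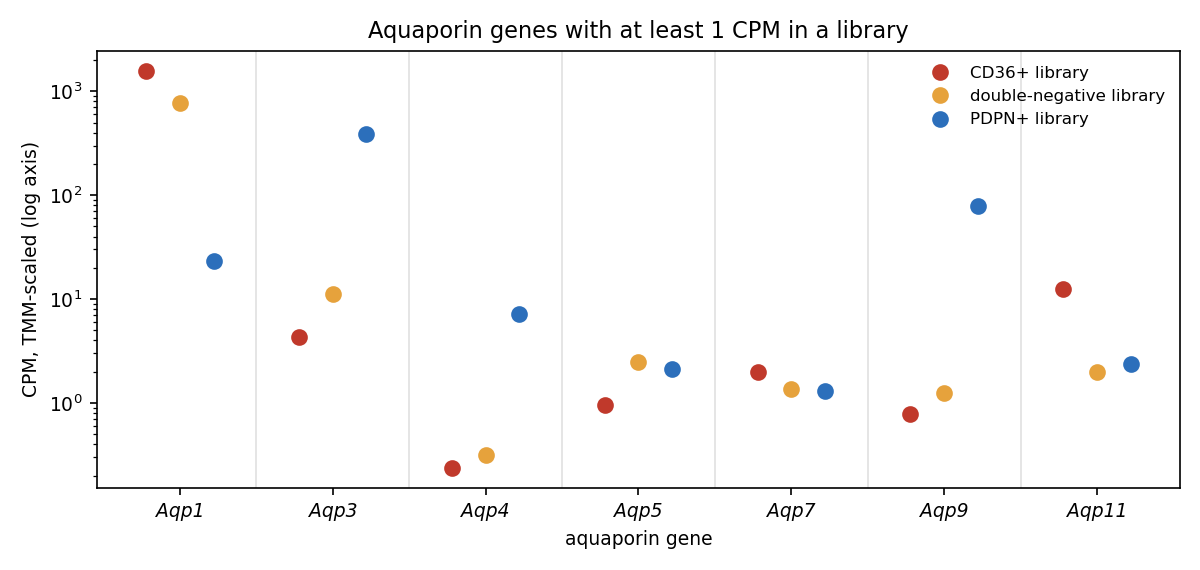
TMM-scaled CPM, on a log axis, of Aqp1 and the 6 other aquaporin genes that reached 1 CPM, 1 point per library. Aqp1 is at 1582 CPM in CD36+ and 23.4 CPM in PDPN+ cells, while Aqp3 is at 4.29 and 384 CPM.

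Mfsd2a (minus strand of chromosome 4, 122946850 to 122961188) was the only one of the 10 genes found in PDPN+ cells alone. It had 0 counts in CD36+ cells, 0 counts in double-negative cells and 136 counts, or 1.84 CPM, in PDPN+ cells. Taking 3 counts per library as the floor (0.0507 CPM in CD36+ and 0.0594 CPM in double-negative cells), Mfsd2a was at least 36.3-fold lower in CD36+ and at least 30.9-fold lower in double-negative than in PDPN+ cells. These bounds cover counting only, and loss of transcripts in library preparation was not tested. Flot2, which most cells carry, had 3281, 7 and 339 counts in CD36+, double-negative and PDPN+ cells. Mfsd2a stayed under 10 CPM and so entered no count of genes apart. With a minimum of 1 CPM or none, Mfsd2a was the 1 lower member, in place of 0, against PDPN+ cells in both comparisons. The TPM of Mfsd2a in PDPN+ cells, 12.5, was above that of Plvap, 9.38, although Plvap had 809 counts there. The length behind that TPM was 227 bases, while the full coding transcript has 2151 bases and the shortest annotated transcript 356 bases. The TPM was thus assigned mostly to short transcripts of the gene and does not stand for the full coding transcript.

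As a group, 7 of the 10 genes were at least 4-fold higher in CD36+ than in PDPN+ cells with at least 10 CPM in the higher one, and 0 were 4-fold lower, where 15.1% of 9387 genes were higher and 17.6% lower. At 2-fold the counts were 9 higher and 0 lower, beside 25.3% and 28.0%. The balance of all genes in this pair moved with the scaling: under total counts 11.8% were 4-fold higher and 22.4% lower, and at 2-fold 19.1% were higher and 37.3% lower. At 2-fold the shares were 31.3% higher and 23.2% lower under upper quartile scaling, and 18.0% and 34.7% by the deposited TPM. In double-negative against PDPN+ cells, 5 were at least 4-fold higher (14.9% of 9515 genes) and 0 lower (19.3%), namely Cav1, Cavin3, Plvap, Ehd4 and Aqp1. At 2-fold these were 9 higher (25.4%) and 0 lower (30.2%), where upper quartile scaling gave 31.7% and 24.7% over all genes. The 9 became 7 under total counts and 6 by the deposited TPM, in which Cavin1, Cavin2 and Ehd2 were under 2-fold. Both comparisons share the PDPN+ library and are not independent. In CD36+ against double-negative cells 0 genes were 4-fold apart in either direction (12.2% higher and 11.9% lower of 8968 genes). At 2-fold 4 were higher, Cavin1, Cavin2, Plvap and Aqp1 (22.9%), and 0 lower (21.0%). A minimum of 100 CPM in the higher library was tried once the data had been seen. With it, 4 of the 10 genes were at least 2-fold higher in this pair and 0 lower, where 11.3% of 2382 genes were higher and 6.8% lower. The counts were 8 higher and 0 lower for CD36+ against PDPN+ cells (26.8% and 16.0% of 2636 genes), and 7 higher and 0 lower for double-negative against PDPN+ cells (23.7% and 18.5% of 2534 genes).

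The median log2 ratio over the 10 genes was 2.25 for CD36+ against PDPN+ cells and 1.88 for double-negative against PDPN+ cells, beside -0.02 and -0.11 over all genes tested. For CD36+ against double-negative cells it was 0.73, or 0.97 without Mfsd2a, which had 0 counts in both, beside 0.11 over all genes. The 9 other genes ranged from 1.60 (Cav2) to 6.08 (Aqp1) in CD36+ against PDPN+ cells, from 1.02 (Ehd2) to 5.05 (Aqp1) in double-negative against PDPN+ cells, and from -0.39 (Cavin3) to 1.29 (Cavin2) in CD36+ against double-negative cells. Total-count scaling left 4 genes at least 4-fold higher in CD36+ than in PDPN+ cells, namely Cavin2, Plvap, Ehd4 and Aqp1, and the deposited TPM also left 4. In CD36+ against double-negative cells both left 2 at least 2-fold higher, Cavin2 and Plvap.

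**Figure D5:**
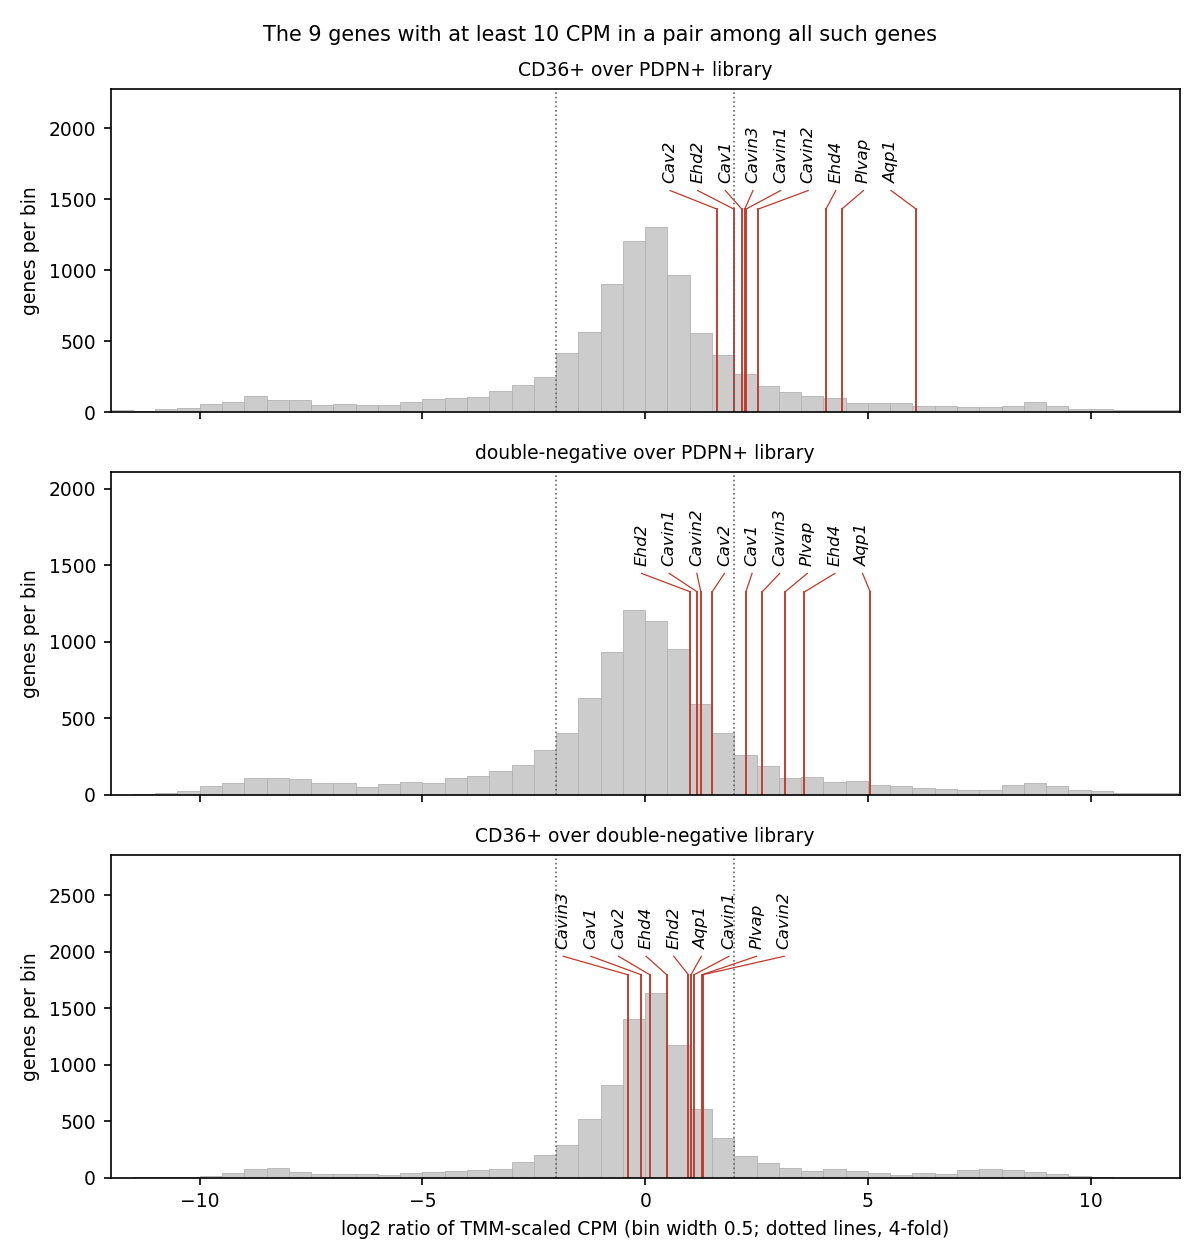
Log2 ratio of TMM-scaled CPM for all genes with at least 10 CPM in either library of a pair (grey bars, genes per bin of 0.5), with red lines at the 9 genes other than Mfsd2a and dotted lines at 4-fold. In the upper and middle panels all 9 lines lie right of 0, from 1.60 to 6.08 and from 1.02 to 5.05, and in the lower panel Cavin3 and Cav1 lie left of it.

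Ordered by TPM, Aqp1 led in CD36+ cells at 714, followed by Cav1 at 424 and Cavin1 at 209. Cavin3, Cav2, Ehd4, Cavin2 and Plvap followed between 175 and 143, each at most 1.09 times the next, an order that 1 library cannot settle. In double-negative cells Cav1 led at 495, followed by Aqp1 at 383 and Cavin3 at 250.2, and Cavin2 and Plvap were nearly level at 65.1 and 64.6. In PDPN+ cells Cav1 led at 154, followed by Cav2 at 76.8 and Cavin1 at 61.1, with Aqp1 in seventh place at 14.8. The TPM of all 10 genes summed to 2141 in CD36+ cells, 1679 in double-negative cells and 449 in PDPN+ cells.

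Other cells with caveolae were looked for by their markers. The adipocyte genes Adipoq and Cfd had 0 counts in all 3 libraries, and Lep had 0, 1 and 2 counts in CD36+, double-negative and PDPN+ cells. The 6 adipocyte markers summed to 140 CPM in CD36+, 129 CPM in double-negative and 25.8 CPM in PDPN+ cells, of which Adipor2, a receptor that other cells also carry, gave 136, 126 and 23.04 CPM. The 7 pericyte and smooth muscle markers summed to 259, 189 and 70.6 CPM. Rgs5 gave 241, 164 and 51.9 CPM of these, and Des had at most 1 count in a library. Pdgfrb had 803, 3 and 268 counts in CD36+, double-negative and PDPN+ cells, and Cspg4 had 214, 3 and 270. Abcc9 had 50, 1263 and 386 counts, Kcnj8 had 1, 0 and 302, and Notch3 had 4, 1 and 157. Among 5 lymphatic endothelial markers, Ccl21a, a chemokine also made in high endothelial venules, stood at 34.4 CPM in CD36+ cells, 3463 CPM in double-negative cells and 39.8 CPM in PDPN+ cells, while Lyve1 had 1, 2 and 14 counts. The others differed in pattern: Prox1 stood at 18.1, 21.1 and 6.15 CPM, Flt4 at 11.9, 3.09 and 4.12 CPM, and Reln at 0.0676, 0.139 and 25.3 CPM. The 5 basal epithelial markers summed to 28.9, 191 and 4758 CPM, the 5 luminal ones to 329, 240 and 635 CPM, the 5 fibroblast ones to 110, 60.6 and 561 CPM. Of the fibroblast markers, Dcn stood at 43.1, 47.8 and 423 CPM and Lum at 49.0, 0.198 and 51.1 CPM. The immune list summed to 2.91, 1.01 and 6.11 CPM, and the Schwann list to 6.62, 9.59 and 67.1 CPM. The part of these cells in the levels of the 10 genes was not tested.

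Partners of the caveola coat and neck did not share 1 direction. Of 15 such genes, 11 reached 1 CPM in a library, and 6 were at least 2-fold higher and 3 lower in CD36+ than in PDPN+ cells (25.3% and 31.5% of all genes), with a median log2 ratio of 1.09. The median over all 17533 genes was -0.07. Ehd3, the paralogue of Ehd2 and Ehd4, stood at 574 CPM in CD36+, 1048 CPM in double-negative and 57.8 CPM in PDPN+ cells. Ehd3 was thus 9.93-fold (9.62 to 10.3) and 18.1-fold higher (17.6 to 18.7) than in PDPN+ cells, and 1.83-fold lower in CD36+ than in double-negative cells (1.80 to 1.85). Dnm3, a dynamin, was 20.8-fold higher in CD36+ (18.0 to 24.1) and 28.4-fold higher in double-negative than in PDPN+ cells (24.6 to 33.0). By the deposited TPM the Dnm3 difference was smaller, at 29.7, 36.3 and 4.59 in CD36+, double-negative and PDPN+ cells. Nos3, the endothelial nitric oxide synthase that caveolin 1 binds, stood at 16.5 and 29.7 CPM in CD36+ and double-negative cells and had 3 counts in PDPN+ cells. Nostrin, which traffics that enzyme, had 0 counts in PDPN+ cells, against 10.02 CPM in CD36+ and 55.0 CPM in double-negative cells. Flna, the actin crosslinker that tethers caveolae, was 2.64-fold lower in CD36+ (2.56 to 2.73) and 4.89-fold lower in double-negative than in PDPN+ cells (4.67 to 5.12). Pacsin2, a membrane-curving protein of caveolae, stood at 60.2, 55.2 and 49.7 CPM in CD36+, double-negative and PDPN+ cells. Its TPM was 21.6, 23.5 and 42.0, so its direction against PDPN+ cells turned in the deposited TPM. Pacsin3, its paralogue, had 0 counts in CD36+ cells, 3 counts in double-negative cells and 13.4 CPM in PDPN+ cells.

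In double-negative against PDPN+ cells, 5 of these 11 partners were at least 2-fold higher (26.4% of all genes) and 4 lower (32.4%), with a median of 0.76. The 5 were Ehd1, Ehd3, Dnm3, Nos3 and Nostrin, and the 4 were Pacsin3, Dnm2, Flna and Flot2. Ehd1, an EHD protein of recycling endosomes, stood at 20.8, 56.6 and 9.74 CPM in CD36+, double-negative and PDPN+ cells, but its TPM was 15.3, 21.6 and 16.3, so its direction in CD36+ against PDPN+ cells turned in the deposited TPM, which differs from CPM in both library scaling and transcript length. In CD36+ against double-negative cells, Dnm2 and Flot2 were at least 2-fold higher (25.0% of all genes), and Ehd1, Pacsin3, Flot1 and Nostrin lower by the fitted ratio (25.6%), with a median of -0.84, or -0.65 without Pacsin3, which was at or under the floor in both. Flot2, a flotillin that most cells carry, stood at 55.4 CPM in CD36+ cells, 7 counts in double-negative cells and 4.58 CPM in PDPN+ cells. Dnm2, the dynamin found in most tissues, stood at 8.48, 0.614 and 30.5 CPM. The muscle forms Cav3 and Cavin4 had at most 2 counts in any library.

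Receptors and carriers linked to transcytosis were mostly higher in CD36+ and double-negative cells. Of 14 such genes 13 were measured, with 8 at least 2-fold higher and 3 lower in CD36+ than in PDPN+ cells (25.3% and 31.5% of all genes). The numbers were the same in double-negative against PDPN+ cells (26.4% and 32.4%). The medians were 5.44 and 4.52, beside -0.07 and -0.05 over all genes. Cd36, whose levels are given above, is among the 8 and is no independent result, since it defined the sort. Both medians include it. Without Cd36 the median for CD36+ against PDPN+ cells would lie between the log2 ratios of Fcgrt (2.62) and Ramp2 (5.44). For double-negative against PDPN+ cells it would lie between those of Fcgrt (1.79) and Scarb1 (4.52). Calcrl, a receptor for adrenomedullin, stood at 923, 1160 and 20.9 CPM, and its partner Ramp2 at 49.4, 41.7 and 1.11 CPM. Insr, the insulin receptor, was 45.3-fold higher in CD36+ (42.1 to 48.7) and 30.9-fold higher in double-negative than in PDPN+ cells (28.7 to 33.2). Fcgrt, the neonatal Fc receptor, was 6.16-fold (5.89 to 6.44) and 3.47-fold higher (3.30 to 3.64). Acvrl1 and Scarb1, which carry LDL across endothelium, stood at 61.2 and 117 CPM in CD36+ cells, at 64.5 and 34.0 CPM in double-negative cells, and at 0 counts and 1.45 CPM in PDPN+ cells.

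Gpihbp1, which carries lipoprotein lipase across capillary endothelium, stood at 130.1 CPM in CD36+ cells, 25.0 CPM in double-negative cells and 0 counts in PDPN+ cells. Those levels were at least 3207-fold and at least 616-fold higher than in PDPN+ cells, and Gpihbp1 was 5.20-fold higher in CD36+ than in double-negative cells (4.90 to 5.53). Tfrc, Lrp1 and Lrp8 were the 3 lower ones in CD36+ against PDPN+ cells, and Lrp1 and Lrp8 were also lower in double-negative than in PDPN+ cells. Pigr, which carries immunoglobulin across epithelia, had at most 6 counts. Between CD36+ and double-negative cells 6 of the 13, Cd36 among them, were at least 2-fold higher (25.0% of all genes) and 1, Tfrc, lower (25.6%), with a median of 0.83, beside 0.00 over all genes.

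Mfsd2a is known as a gene of brain vessels, so a fixed list of other transporters was examined. Not all of them, Mfsd2b among these, are particular to those vessels. Of 11 such genes 10 reached 1 CPM, with 5 at least 2-fold higher and 2 lower in CD36+ than in PDPN+ cells (25.3% and 31.5% of all genes). The median was 1.36, or 2.30 without Slco1c1, which was under the floor in both, beside -0.07 over all genes. The 5 were Abcb1a, Abcg2, Slco1a4, Mfsd2b and Spns2, and the 2 were Slc2a1 and Slc7a5. Slco1a4 had only 12 counts in CD36+ and 0 in PDPN+ cells, and reached 1 CPM in double-negative cells alone (1.56 CPM). Mfsd2b stood at 5.90, 1.09 and 1.18 CPM in CD36+, double-negative and PDPN+ cells. Abcg2, a drug exporter, stood at 1333 CPM in CD36+, 826 CPM in double-negative and 26.8 CPM in PDPN+ cells, and Abcb1a, another, at 148 and 82.8 CPM in CD36+ and double-negative cells against 7 counts in PDPN+ cells. Slc2a1, the glucose transporter, was 3.90-fold lower in CD36+ (3.79 to 4.01) and 3.91-fold lower in double-negative than in PDPN+ cells (3.79 to 4.03). Slc3a2 and Slc16a1, carriers of many cell types, stood at 1096 and 225 CPM in CD36+ cells, 731 and 197 CPM in double-negative cells, and 867 and 169 CPM in PDPN+ cells. In double-negative against PDPN+ cells 5 were higher, with Slco1c1 in place of Mfsd2b (26.4% of all genes), and the same 2 lower (32.4%), with a median of 2.58, beside -0.05 over all genes. Between CD36+ and double-negative cells 2 were higher, Mfsd2b and Spns2, and 2 lower, Slco1c1 and Slco1a4, near the shares over all genes (25.0% and 25.6%), with a median of 0.39, beside 0.00.

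Genes of vesicle fusion and sorting are used by most cells. Of 8, all measured, Nsf, Rab5a and Rab11a were at least 2-fold higher and Vamp2 lower in CD36+ than in PDPN+ cells (25.3% and 31.5% of all genes), with a median of 0.79, beside -0.07 over all genes. In double-negative against PDPN+ cells Vamp3, Nsf, Rab5a and Rab11a were higher and Vamp2 and Napa lower (26.4% and 32.4% of all genes), with a median of 1.02, beside -0.05. Rab5a, the early endosome GTPase, stood at 427, 303 and 143 CPM in CD36+, double-negative and PDPN+ cells, and Rab11a, of recycling endosomes, at 324, 355 and 114 CPM. Snap23, a plasma membrane SNARE, stood at 208, 241 and 127 CPM. Vamp2 had 1 count in CD36+ cells, 1 count in double-negative cells and 11.98 CPM in PDPN+ cells. Between CD36+ and double-negative cells Napa was higher and Vamp3 and Nsf lower (25.0% and 25.6% of all genes), with a median of -0.11, or -0.13 without Vamp2, beside 0.00.

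The genes most like Cav1 in pattern, by the distance of 2 log2 ratios over the 3 libraries among 7358 protein-coding genes with at least 20 CPM, were Rab20 (distance 0.02), Hmox2 (0.05) and Ogfrl1 (0.05). Rab20 stood at 104, 109.8 and 23.1 CPM in CD36+, double-negative and PDPN+ cells. Those most like Plvap were Sox17 (0.18), Lrrc32 (0.18) and Neu1 (0.21), and those most like Aqp1 were Csf3 (0.16), Herc6 (0.18) and Gimap9 (0.21). Among the 10 genes themselves, Cav1 and Cavin3 lay closest (0.31), followed by Cavin1 and Ehd2 (0.31) and Cavin1 and Cavin2 (0.34), while Cav1 and Cavin1 lay 1.19 apart. No such genes are named for Mfsd2a, whose ratios depend on the prior count.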

How the data were processed

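Processed tables of bulk RNA sequencing were used from 3 mouse libraries, 1 for each sorted population, grouped by the labels. The labels' protocols name 2 RNA extraction kits, a low-input and a stranded ribosome-depletion library kit, and 2 sequencing instruments, without saying which served which library, so library chemistry and population cannot be told apart. Salmon 0.9.1 and mm10 are named in the submitters' processing notes. The deposited tables hold estimated counts, which were rounded, and TPM. The annotation release, the strand setting and read filters are not given here. The deposited gene length column was not used: among genes with several annotated transcripts, the length implied by counts and TPM lay within 5% of it for 7.67% to 7.94%, against at least 99.9% of genes with 1 transcript.

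Symbols and coordinates came from GENCODE M21 (mm10), which matched 52566 of 52661 identifiers without version. TMM factors (edgeR 4.0.16, R 4.3.3) were computed over all 3 libraries. Log2 ratios used a prior count of 2. A gene was apart at 4-fold, or at 2-fold where said, with at least 10 CPM in the higher library. Pathway lists took a gene once it reached 1 CPM anywhere. Fold intervals are exact 95% counting intervals, without molecular identifiers, so PCR copies are not covered. Bounds given as at least a fold, from 0 counts, also cover counting only, not loss of transcripts in library preparation. Ratios and intervals came from Python 3.11.15 with scipy 1.17.1, numpy 2.4.6 and pandas 2.3.3, tested on simulated data. Alternatives were total-count, upper quartile and DESeq2 1.42.0 scaling, the deposited TPM, a prior count of 0.5, unrounded counts and other CPM minimums.

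The members, lists and rules were chosen with earlier results of these data known. Named genes were the 10 members, up to 4 most abundant genes of each of 5 lists, list members where a count was 5 or fewer, and the 3 genes nearest in pattern to each of Cav1, Plvap, Aqp1 and Mfsd2a. Those of Mfsd2a are not given, and other list genes were named after their values were seen. Values of some list genes are not reported here.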

Additional observations from a re-analysis of the deposited data

How the results depend on the processing

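No paired analysis was possible because each population has 1 library, and no library could be left out for the same reason. The count of the 10 genes at least 4-fold higher in CD36+ than in PDPN+ cells, 7, was 4 under total-count scaling and 4 by the deposited TPM. The count at least 2-fold higher in CD36+ than in double-negative cells, 4, was 2 under total counts and 2 by TPM. The other counts of higher genes stayed within 1.5 times under the alternatives run; at 2-fold that of double-negative against PDPN+ cells, 9, was 7 under total counts and 6 by TPM. The count of lower genes against PDPN+ cells, 0 in both comparisons, was 1 (Mfsd2a) with a minimum of 1 CPM or none. The median log2 ratio over the 10 genes in CD36+ against PDPN+ cells, 2.25, was 1.85 under total counts and 2.52 under upper quartile scaling. In double-negative against PDPN+ cells, 1.88 became 1.65 and 2.16 in the same order, and in CD36+ against double-negative cells 0.73 became 0.55 under total counts. By TPM, which leaves out Mfsd2a, the medians over 9 genes were 1.78, 1.68 and 0.84, against 2.27, 2.26 and 0.97 by TMM CPM over the same 9. Total counts moved the median of all genes tested by -0.47, -0.28 and -0.20 in the 3 comparisons, and upper quartile scaling by 0.33, 0.35 and -0.01. Of 162 single-gene ratios under the 6 alternatives that give one, 2 changed sign, both of Cav2 in CD36+ against double-negative cells (-0.07 under total counts and -0.04 by TPM, against 0.10). With 3 counts as the floor, depth limits Mfsd2a, and counting error is small for the other 9 genes. Scaling between libraries moves their ratios more than counting does.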
